A study of Homo sapiens with 16 samples.

Results

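LAN-1 is a human neuroblastoma line, and its transcriptome was compared here between 2 and 5 days of exposure to GSK126, a small molecule that blocks the catalytic site of the histone methyltransferase EZH2. The comparison rests on 4 of the 16 libraries of the series, chosen by their labels and not by any measured value: 2 libraries of LAN-1 cells given 2 uM GSK126 for 2 days and 2 libraries given the same dose for 5 days. The same time step in LAN-1 cells given the DMSO vehicle (4 libraries) and in Kelly, the other neuroblastoma line of the series, given 2 uM GSK126 (4 libraries), was read beside it. Each group held 2 libraries, so n = 2 throughout. The labels call them duplicates and do not say that they came from separate cultures, so the p-values measure only the spread between these samples. Changes from day 2 to day 5 are called the GSK126 step and the DMSO step below, and they share no library.

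EZH2 is the enzyme of Polycomb repressive complex 2 (PRC2), which methylates lysine 27 of histone H3 and keeps developmental genes silent. Inhibitors of its active site do not remove the protein, and the methyl mark is lost mainly as it is diluted by cell division, so that transcripts can go on changing over days. Neuroblastoma arises from the sympathetic lineage of the neural crest, where EZH2 is known for holding back neuronal differentiation, and both lines carry an amplified MYCN gene. The design asks what moves further in LAN-1 between an early and a later time under the drug, and whether time in culture with vehicle moves the same genes.

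Whole-read counts were deposited for 25728 gene symbols, and the LAN-1 libraries held from 912095 to 1597429 counts, the fewest in the second day 5 GSK126 library. Levels are given as CPM (counts scaled to a library total of 1000000), which are not corrected for gene length and so are not compared between genes. A gene was called when its adjusted p was below 0.05, and "rose" and "fell" are used of called genes only. The cells carried the markers of their lineage: the 12 adrenergic neuroblastoma markers summed to between 2762 and 3111 CPM in the 8 LAN-1 libraries, although TH and DBH, the enzymes that define catecholamine synthesis, stayed at 4.90 CPM or less. Markers of blood, epithelial and endothelial cells summed to 2.10 CPM or less in every LAN-1 library, and those of Schwann cells to 8.82 CPM or less. The day 5 GSK126 duplicates differed from each other more than any other pair: their gene-wise variance was 1.95 times that of counting alone, against 1.18 for the day 2 pair, and their ratio correlated with gene GC content at r = -0.32 across 11703 genes, which are not independent replicates.

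Of 11863 genes tested, 145 (1.22%) were called in the GSK126 step, 104 higher (0.877%) and 41 lower (0.346%) at day 5. Most changes were small: the median size among called genes was 0.56 on the log2 scale, and 18 genes passed 2-fold. The risers included large cytoskeletal linkers, histone modifiers and the insulin-like growth factor (IGF) axis, and the fallers included KCTD12, SMAD6 and TBX3. With DMSO the same 3 days gave 52 calls (0.438%), 14 higher (0.118%) and 38 lower (0.32%). The difference between the 2 steps was itself called for 64 genes (0.539%), 51 of them (0.43%) moving upward with GSK126 relative to DMSO and 13 (0.11%) downward (60 of 65 upward, or 92.3% in place of 79.7%, after a correction for GC content). Without the first day 5 GSK126 library the difference was called for 107 genes upward and 116 downward, and the upward excess was not seen. Since these are bulk samples, fewer cells of a kind and less RNA per cell cannot be told apart.

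The count moved with the libraries used. Leaving out the first day 2 library left 21 calls, 19 of them among the 145, and leaving out the second left 81, with 68 among the 145. Without the first day 5 library there were 382 calls (187 higher, 195 lower), 97 of them among the 145, and without the second, the smallest, there were 60, with 51 among the 145. In each such fit the group with a lone library was assumed to vary like the others. All 145 genes kept their sign in all 4 fits. No called gene had day 2 and day 5 libraries that overlapped, so leaving out a library could hardly turn a sign. The kept signs are therefore not read as evidence of stability. Of the 145, 11 kept their call in all 4 fits: ZFHX3, DST, SULF2, PRUNE2, MAP1B, KMT2D, SRCAP, MACF1, IGFBP5, IGFBP2 and KCTD12. For other genes, the adjusted p given for a fit without a library is the highest over these fits, and DESeq2, a different count test, called 60 genes, of which 59 were among the 145.

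**Figure D1:**
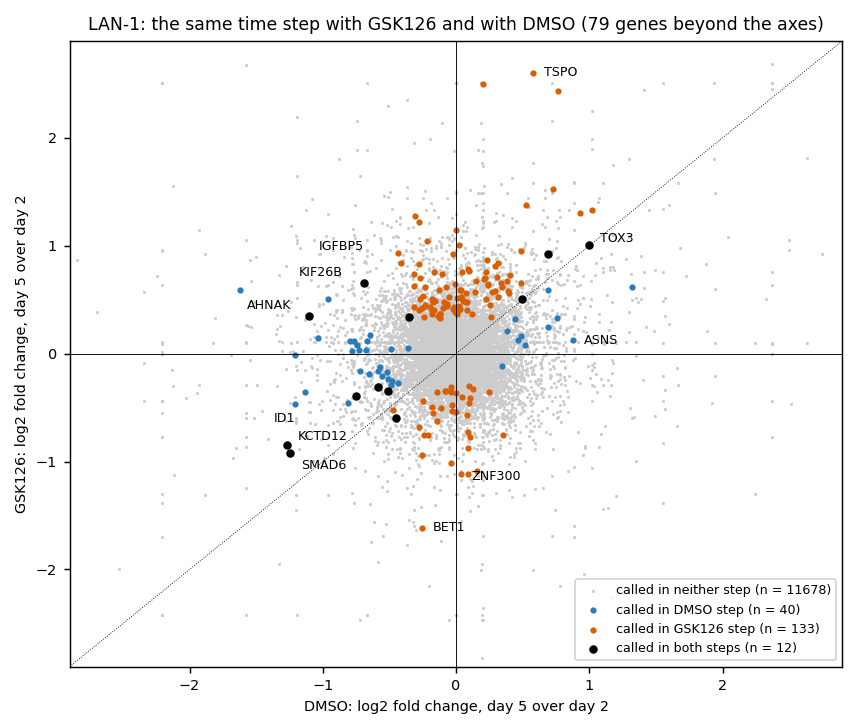
Log2 fold change from day 2 to day 5 in LAN-1 with DMSO (horizontal) and with GSK126 (vertical) for every tested gene, called genes coloured by the step in which they were called, with equal change on the dotted line. The 12 genes called in both steps lie near the dotted line except KIF26B, AHNAK and SRRM2, which sit at the upper left, and 79 genes fall beyond the axes.

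The 11 genes that did not depend on any 1 of these 4 libraries are described first; those outside the naming rule (ZFHX3, DST, SULF2, PRUNE2, SRCAP and MACF1) were chosen after their values were seen. ZFHX3, a large zinc-finger and homeobox transcription factor linked to neuronal differentiation (chr16:72816784-73925770 on GRCh37), stood at 157 and 183 CPM at day 2 with GSK126 and at 326 and 319.6 CPM at day 5. With DMSO it stood at 177 and 208 CPM and then at 197 and 181 CPM. Both day 5 GSK126 libraries therefore lay above all 6 others, which overlapped. The GSK126 step was 0.92 ± 0.12 on the log2 scale (estimate ± SE, adjusted p = 4.72e-09), and it exceeded the DMSO step by 0.95 ± 0.16 (adjusted p = 9.04e-05).

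Cytoskeletal linkers and a microtubule protein rose with it. DST (chr6:56322785-56819628), which encodes the linker dystonin, went from 166 and 182 CPM to 322 and 270.0 CPM with GSK126, a step of 0.78 ± 0.11 (adjusted p = 9.42e-07). MACF1 (chr1:39546988-39952849), a crosslinker of microtubules and actin, went from 237 and 276 CPM to 429.5 and 352 CPM (0.62 ± 0.11, adjusted p = 7.02e-05). MAP1B (chr5:71403061-71505392), a microtubule-associated protein of growing axons, went from 1808 and 1954 CPM to 2886 and 2518 CPM (0.52 ± 0.08, adjusted p = 4.37e-06). In none of the 3 did the day 2 and day 5 drug libraries overlap, and for MAP1B the DMSO libraries, at 1916 and 2088 CPM and 2185 and 1924 CPM, stayed below both day 5 drug libraries. The difference from the DMSO step was called for all 3, at 0.69 for DST, 0.85 for MACF1 and 0.49 for MAP1B (adjusted p = 0.0108, 0.00015 and 0.0149). Leaving out the first day 2 GSK126 library took that difference to an adjusted p of 0.139 for DST, and leaving out the second day 5 DMSO library took it to 0.272 for MAP1B.

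SULF2 (chr20:46284941-46415360), which removes sulfate groups from heparan sulfate outside the cell, was at 168 and 169 CPM at day 2 and at 292 and 279.9 CPM at day 5 of the drug. PRUNE2 (chr9:79226292-79521030), known as a gene of favourable neuroblastoma, was at 168 and 193 CPM and then at 311 and 299.7 CPM. Duplicates lay close together in both genes and the days did not overlap. The steps were 0.76 ± 0.11 for SULF2 (adjusted p = 1.42e-06) and 0.76 ± 0.11 for PRUNE2 (adjusted p = 1.7e-06). Their difference from DMSO was 0.67 ± 0.17 and 0.71 ± 0.17 (adjusted p = 0.0331 and 0.0226), and lost its call for SULF2 without the first day 2 DMSO library (0.429) and for PRUNE2 without the second (0.246). KCTD12 (chr13:77454310-77460540), an auxiliary subunit of GABA-B receptors, was the only faller among the 11: it stood at 1203 and 908 CPM at day 2 and 625 and 538 CPM at day 5, a step of -0.85 ± 0.10 (adjusted p = 3.13e-09). It fell with DMSO too, from 1053 and 973 CPM to 386 and 459 CPM (-1.27 ± 0.10, adjusted p = 2.88e-17), and the difference between the steps was 0.42 ± 0.14 (adjusted p = 0.189).

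**Figure D2:**
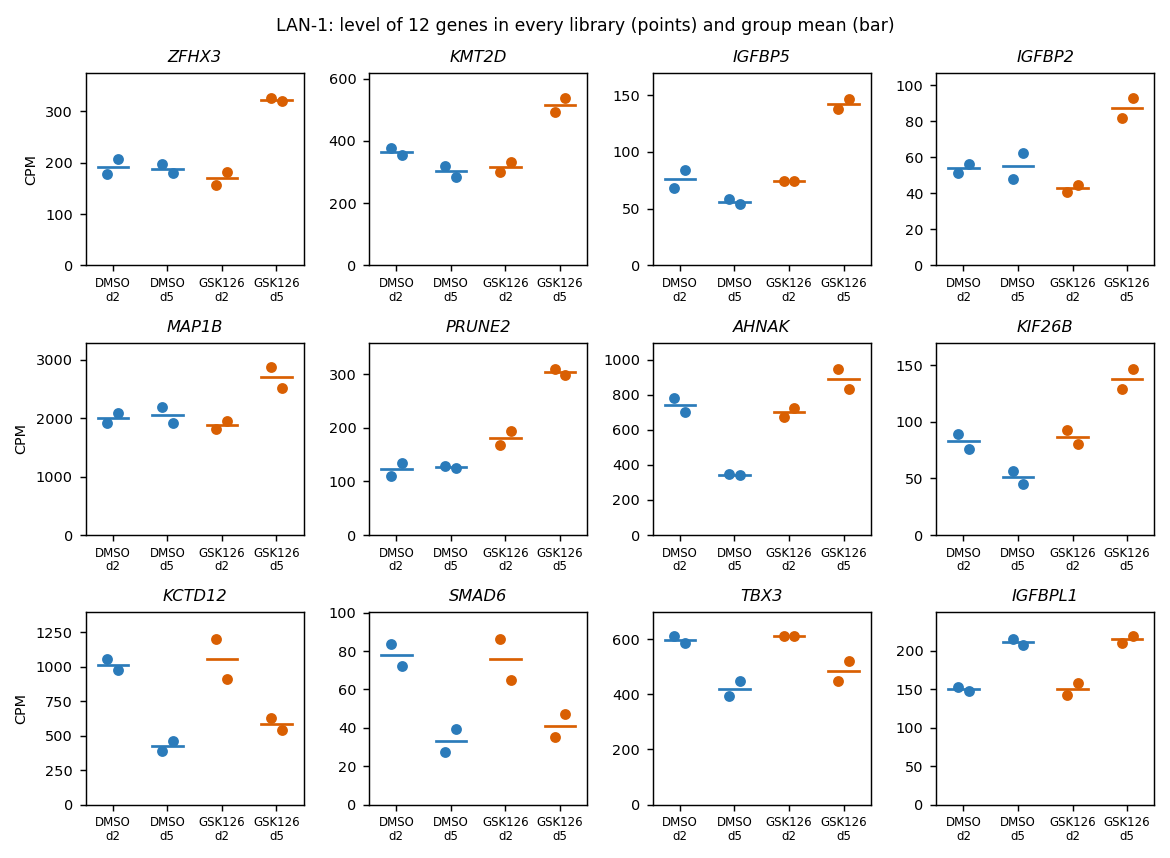
CPM of 12 genes in each LAN-1 library (points) with the group mean (bar), for DMSO at days 2 and 5 (blue) and GSK126 at days 2 and 5 (orange), each axis from 0. ZFHX3, KMT2D, IGFBP5, IGFBP2, MAP1B and PRUNE2 are highest at day 5 of GSK126, AHNAK and KIF26B fall with DMSO and rise with GSK126, and KCTD12, SMAD6, TBX3 and IGFBPL1 move the same way in both.

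Members of the IGF axis rose under the drug. IGFs signal through the receptor tyrosine kinases IGF1R and INSR, and the IGF-binding proteins hold the ligands outside the cell. Of 14 tested members, 6 rose and none fell, where 0.877% of all tested genes rose and 0.346% fell. The median step was 0.39 against 0 for all tested genes. This list was drawn up after the values were seen, so its count and median are a description only. With DMSO 1 member rose (IGFBPL1) and 1 fell (IGFBP4), with a median of -0.05. Among the ligands, IGF2 went from 118 and 125 CPM to 166 and 214 CPM (0.62 ± 0.14, adjusted p = 0.00615). Among the receptors, IGF1R went from 376 and 344 CPM to 479 and 499 CPM (0.44 ± 0.09, adjusted p = 0.00393). The days did not overlap in either gene, and the difference from the DMSO step was called for neither.

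The binding proteins showed the larger changes. IGFBP5 (chr2:217536828-217560272) stood at 74.3 and 74.3 CPM at day 2 and at 138 and 147 CPM at day 5, a step of 0.93 ± 0.15 (adjusted p = 6.87e-06). IGFBP2 (chr2:217497551-217529159) stood at 40.8 and 44.9 CPM and then at 81.8 and 92.6 CPM (1.01 ± 0.18, adjusted p = 0.000189). Both were highest in the day 5 drug libraries, with no overlap with any of the other 6. They are neighbours on chromosome 2, on opposite strands with 7668 bases between their annotated ends. The difference from DMSO was called for IGFBP5 (1.36 ± 0.22, adjusted p = 3.21e-05) in each fit without 1 library, and for IGFBP2 (0.98 ± 0.26, adjusted p = 0.0451) it reached 0.325 without the first day 5 DMSO library. IGFBPL1, a related secreted protein, rose with both treatments: its steps were 0.51 ± 0.12 with GSK126 and 0.50 ± 0.11 with DMSO, and the difference was 0.01 ± 0.16. INSR rose as well (0.48 ± 0.13, adjusted p = 0.0357), without a called difference from DMSO. The call of IGF2 was lost without the second day 5 library (0.219), that of IGF1R without the second day 2 library (0.0753), and those of INSR and IGFBPL1 without the first day 2 library (0.317 and 0.256). IGF2 shares sequence with the INS-IGF2 readthrough gene, and the counting rule for overlapping genes was not given in the sources used here, so its value is uncertain.

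Transcripts of the drug's own target complex did not pass the test. EZH2 stood at 114 and 111 CPM at day 2 and 109 and 100.3 CPM at day 5 (-0.10 ± 0.14, adjusted p = 0.84), which checks no label, since the drug acts on the enzyme. SUZ12, the PRC2 scaffold, gave -0.16 ± 0.15 (adjusted p = 0.717), EED, which reads the mark, gave 0.24 ± 0.29 (adjusted p = 0.792), and EZH1, the paralogous enzyme, gave -0.30 ± 0.33 (adjusted p = 0.771). Of 12 tested PRC2 subunits and 19 PRC1 subunits, edgeR and DESeq2 called none, and 1 PRC2 subunit had an unadjusted p under 0.05. Genes that PRC2 is known to hold silent are read against the 1.22% called over all tested genes. Of 23 tested developmental transcription factors bound by PRC2, none rose and TBX3 fell, and of 11 tested HOX genes none was called by edgeR or DESeq2, with 1 at an unadjusted p under 0.05. HOXD13, a digit and genital patterning factor, had 3 counts at day 2 and 13 at day 5, a ratio of 4.67 with an exact counting interval of 1.28 to 25.5, but its adjusted p was 0.181. TBX3, a T-box repressor, went from 610.4 and 610.3 CPM to 448 and 521 CPM (-0.34 ± 0.09, adjusted p = 0.0298, and 0.355 without the first day 2 library). It fell with DMSO also (-0.51 ± 0.09, adjusted p = 7.33e-05).

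Some chromatin regulators that act against Polycomb rose. Of 16 tested histone modifiers of this kind, 5 rose and none fell, where 0.877% of all tested genes rose. After a correction for GC content and length, described below, 1 of them was called. The median step was 0.22 against 0 for all genes. With DMSO the median was -0.15, and the difference between the steps was called for the same 5: KMT2D, CREBBP, KMT2A, ARID1A and EP300. KMT2D (chr12:49412758-49454577), a histone H3 lysine 4 methyltransferase of enhancers, stood at 301 and 333 CPM at day 2 and 495 and 539 CPM at day 5 of GSK126. It stood at 377 and 355 CPM and then 320.3 and 285 CPM with DMSO. The day 5 drug libraries were the highest 2 of the 8, and the day 5 DMSO libraries overlapped those of day 2 of the drug. The GSK126 step was 0.70 ± 0.11 (adjusted p = 1.14e-05) and the difference from DMSO 0.97 ± 0.15 (adjusted p = 3.36e-05).

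CREBBP and EP300 are paralogous acetyltransferases that place acetyl groups on the lysine that PRC2 methylates. CREBBP went from 375 and 389.9 CPM to 476 and 540.0 CPM (0.40 ± 0.09, adjusted p = 0.0102) and EP300 from 212 and 244 CPM to 314 and 289 CPM (0.41 ± 0.11, adjusted p = 0.0298). KMT2A, another H3 lysine 4 methyltransferase, gave 0.45 ± 0.11 (adjusted p = 0.011), and ARID1A, a SWI/SNF remodeller subunit, gave 0.40 ± 0.10 (adjusted p = 0.0136). Outside the list, SRCAP (chr16:30709530-30752730), the remodeller that places histone variant H2A.Z, went from 394 and 399.9 CPM to 560.3 and 641 CPM (0.59 ± 0.10, adjusted p = 2.29e-05). Without the first day 2 GSK126 library, KMT2D was the only listed gene still called, and CREBBP, KMT2A and ARID1A gave adjusted p of 0.171, 0.24 and 0.547.

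Gene length and base composition moved with these results. The genes that rose had a median transcript length of 9.46 kb, and 40.8% of them exceeded 10 kb, against 3.82 kb and 5.28% of all tested genes. The 51 genes with a difference from DMSO called upward had a median of 10.8 kb, and 54.9% of them exceeded 10 kb. The 618 tested genes with a transcript over 10 kb had a median step of 0.12 with GSK126, -0.01 with DMSO and 0.11 in Kelly with GSK126. The genes that fell had a median GC content of 38.7%, against 47.9% of all tested genes. A fit that smoothed out GC content and length in each library, chosen after the data were seen, called 95 genes, of which 68 were among the 145. It called the difference from the DMSO step for 23 genes upward and 4 downward. In that fit 1 of the 5 histone modifiers kept its call, KMT2D at a smaller step of 0.30 (adjusted p = 0.0313), while the adjusted p was 0.324 for CREBBP, 0.343 for KMT2A and 0.16 for ARID1A. MACF1 missed the threshold (0.30, adjusted p = 0.0515), and the other 10 genes kept in every fit without 1 library passed there too, among them ZFHX3 at 0.63, IGFBP2 at 0.88 and IGFBP5 at 0.86. KCNQ1OT1, a long imprinted RNA antisense to KCNQ1, rose from 36.7 and 46.4 CPM to 93.7 and 74.9 CPM (1.04 ± 0.19, adjusted p = 0.000211) and lost its call in that fit (adjusted p = 0.371), as it did without the first day 2 library (adjusted p = 0.0643). Since the strand setting of the counting was not given in the sources used here, its reads and those of KCNQ1 cannot be told apart.

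Several genes of sterol synthesis were higher with GSK126 than with DMSO at day 2. This pathway builds cholesterol from acetyl-CoA and is driven by the SREBP transcription factors. At day 2, 18 genes (0.152%) were called, each higher with GSK126 than with DMSO, and 6 of the 18 belonged to sterol synthesis or transport, with HMGCS1, MSMO1, IDI1, STARD4 and FDFT1 among them. HMGCS1, which makes HMG-CoA, stood at 708 and 742 CPM with DMSO at day 2 and at 1079 and 1053 CPM with GSK126, and at day 5 at 809.9 and 949 CPM and 1058 and 941 CPM. The treatments were apart at day 2 and overlapped at day 5. Its GSK126 step was -0.09 ± 0.08 (adjusted p = 0.718), and its DMSO step 0.28 ± 0.08 (adjusted p = 0.174). None of these 5 was called in either step or at day 5 against DMSO. They were chosen as high in the day 2 GSK126 libraries, which are also the baseline of the GSK126 step, and that choice favours a small or negative step, so nothing is read from its size. For IDI1, an isomerase of the isoprenoid branch, the difference between the steps was called, at -0.68 ± 0.17 (adjusted p = 0.0228, and 0.332 without the first day 2 GSK126 library): it went from 236 and 203 CPM to 179 and 176 CPM with the drug and from 145 and 145 CPM to 175 and 205 CPM without it. The sign of the step of HMGCS1, MSMO1 and STARD4 turned under a GC correction, so no direction is read from it.

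DHCR7, LSS and ACSS2 rose between day 2 and day 5 of GSK126. Of 25 tested sterol genes, 2 rose in the GSK126 step, where 0.877% of all tested genes rose. With DMSO none rose, and the median was 0.16 against 0.10 with GSK126. DHCR7, the final reductase of cholesterol synthesis, went from 143 and 149 CPM to 194 and 251 CPM (0.58 ± 0.13, adjusted p = 0.00466), while LSS, the cyclase that forms lanosterol, went from 479.8 and 451 CPM to 551 and 658 CPM (0.37 ± 0.09, adjusted p = 0.0208). ACSS2, which makes acetyl-CoA from acetate in cytosol and nucleus, was the only one of 10 fatty acid synthesis genes called: it was at 86.4 and 83.5 CPM with DMSO at day 2, at 149 and 145 CPM with the drug, and at 215 and 218 CPM after 5 days of drug. With day 5 DMSO at 100.3 and 125 CPM, none of the 4 groups of ACSS2 overlapped another. Its step was 0.56 ± 0.12 (adjusted p = 0.00558). The difference from the DMSO step missed the threshold for all 3 (0.29 ± 0.19, 0.25 ± 0.13 and 0.16 ± 0.19, adjusted p = 0.654, 0.547 and 0.834). Leaving out the second day 5 library gave an adjusted p of 0.236 for DHCR7 and 0.419 for LSS, and leaving out the first day 2 library gave 0.0829 for ACSS2.

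**Figure D3:**
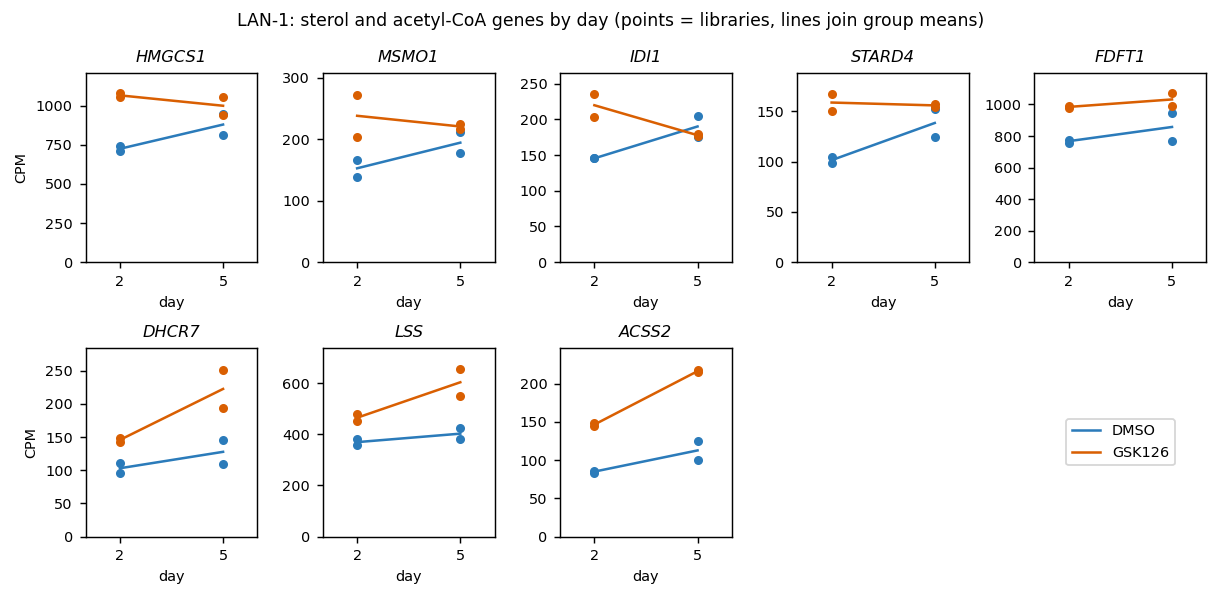
CPM against day of exposure for 8 genes of sterol and acetyl-CoA synthesis in LAN-1 with DMSO (blue) and GSK126 (orange), where points are libraries and lines join group means. HMGCS1, MSMO1, IDI1 and STARD4 have group means that lie closer at day 5 than at day 2, while DHCR7, LSS and ACSS2 are highest at day 5 of GSK126. HMGCS1, MSMO1, IDI1 and STARD4 were chosen as higher with GSK126 at day 2, which favours a smaller gap at day 5.

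The 250 bases before the annotated start of the 3 genes that rose and of HMGCS1 are shown because these genes share a pathway, and because the 3 rose in the GSK126 step while HMGCS1 was called at day 2 against DMSO, as ACSS2 was too; timing was not compared between genes. Sequences and coordinates are RefSeq's on GRCh38.p14, written 5′ to 3′ on the gene's strand, and capitals mark the CCAAT box on either strand (CCAAT or ATTGG), the site of factor NF-Y.
ACSS2, chr20:34874739-34874988, plus strand: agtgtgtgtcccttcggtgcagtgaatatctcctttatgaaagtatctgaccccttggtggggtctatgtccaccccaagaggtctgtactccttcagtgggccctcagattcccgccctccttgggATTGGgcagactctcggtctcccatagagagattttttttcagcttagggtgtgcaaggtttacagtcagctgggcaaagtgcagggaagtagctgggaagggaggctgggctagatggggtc
DHCR7, chr11:71448394-71448643, minus strand: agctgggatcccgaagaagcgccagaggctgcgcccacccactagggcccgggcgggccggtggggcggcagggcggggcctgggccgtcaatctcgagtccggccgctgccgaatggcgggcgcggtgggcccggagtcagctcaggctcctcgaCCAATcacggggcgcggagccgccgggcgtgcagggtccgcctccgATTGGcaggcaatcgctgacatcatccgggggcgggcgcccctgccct
LSS, chr21:46228775-46229024, minus strand: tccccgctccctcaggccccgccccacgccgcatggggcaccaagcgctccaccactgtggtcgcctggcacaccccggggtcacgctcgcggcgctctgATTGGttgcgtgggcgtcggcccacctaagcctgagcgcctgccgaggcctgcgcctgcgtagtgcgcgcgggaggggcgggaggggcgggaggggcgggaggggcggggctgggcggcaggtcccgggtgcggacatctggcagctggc
HMGCS1, chr5:43313413-43313662, minus strand: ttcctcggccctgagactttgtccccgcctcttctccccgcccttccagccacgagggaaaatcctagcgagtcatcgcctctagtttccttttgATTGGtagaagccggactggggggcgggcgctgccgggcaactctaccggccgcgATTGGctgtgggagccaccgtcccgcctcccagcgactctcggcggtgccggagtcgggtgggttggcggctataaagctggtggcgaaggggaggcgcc
All 4 windows hold the CCAAT box, 2 of them (DHCR7 and HMGCS1) at 2 places, as do 33.0% of 27305 promoters of this length. The letters TCACNCCAC, a form of the sterol response element searched on both strands, are in none of the 4 windows and in 0.875% of promoters. These matches are a description of the letters and not of binding.

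Most neuronal genes had a step above 0 with either treatment. Of 39 tested genes of the neuronal cytoskeleton, adhesion and synapse, 31 had a step above 0 with GSK126, 2 were called, MAP1B and STMN2 (1.22% of all tested genes were called), and the median was 0.29; with DMSO 28 were above 0, none was called and the median was 0.16. STMN2, a microtubule regulator of growth cones, was low in LAN-1, at 8.98 and 9.28 CPM at day 2 and 23.8 and 20.9 CPM at day 5 (1.30 ± 0.35, adjusted p = 0.0316). It stood at 3.20 and 6.79 CPM and 11.8 and 6.72 CPM with DMSO, and the difference of the steps was 0.37 ± 0.61 (adjusted p = 0.899). CHGA, a granin of secretory vesicles, was the only one of 14 granins and neuropeptides called, from 252 and 267 CPM to 339 and 353 CPM (0.41 ± 0.10, adjusted p = 0.0173). MAOA, which breaks down catecholamines, went from 77.5 and 87.4 CPM to 125 and 156 CPM (0.74 ± 0.15, adjusted p = 0.000952) and was the only one of 13 catecholamine genes called. SEMA6A, a transmembrane guidance cue (0.65 ± 0.14, adjusted p = 0.00493), and PLXNA1, a semaphorin receptor (0.41 ± 0.12, adjusted p = 0.0452), were the 2 risers of 41 axon guidance genes. These calls were lost without the first day 2 library, where the adjusted p was 0.327 for STMN2, 0.279 for CHGA, 0.0829 for MAOA, 0.337 for SEMA6A and 0.339 for PLXNA1. STMN2 and PLXNA1 were called in none of the 4 fits without 1 library.

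Adrenergic transcription factors did not pass the test under the drug. None of 19 was called in the GSK126 step by edgeR or DESeq2 (median 0.11), and 4 had an unadjusted p under 0.05. With DMSO DACH1 rose and TBX2, HAND1 and GATA2 fell. The difference between the steps was called for none of the 19, so no contrast between the treatments is read from these calls. MYCN was at 1646 and 1778 CPM and then 1775 and 1943 CPM (0.12 ± 0.08, adjusted p = 0.578). The days overlapped in MYCN. RET, a receptor tyrosine kinase of this lineage, gave 0.19 ± 0.13 (adjusted p = 0.568). Of 19 tested mesenchymal identity genes, 3 rose and none fell, where 0.877% of all tested genes rose. Their median step was 0.12 (with DMSO none was called, median -0.24). COL3A1, a fibrillar collagen, went from 5.71 and 13.9 CPM to 28.7 and 19.8 CPM (1.33 ± 0.35, adjusted p = 0.0249). With DMSO it went from 7.04 and 6.79 CPM to 12.5 and 16.0 CPM. COL6A1, a microfibril collagen, went from 111 and 86.6 CPM to 139 and 158 CPM (0.57 ± 0.15, adjusted p = 0.0219). FN1, fibronectin, went from 682 and 756 CPM to 974 and 834 CPM (0.34 ± 0.09, adjusted p = 0.0309). The difference from the DMSO step was not called for COL3A1 or COL6A1. The 8 fibroblast markers, COL3A1 among them, summed to 94.7 and 89.0 CPM at day 2 and to 97.2 and 121 CPM at day 5, with FAP at 0 in every LAN-1 library, and their part in these results was not tested. Each of the 3 calls was lost without a day 2 library: leaving out the first gave 0.567 for COL3A1 and 0.459 for FN1, and leaving out the second gave 0.305 for COL6A1.

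**Figure D4:**
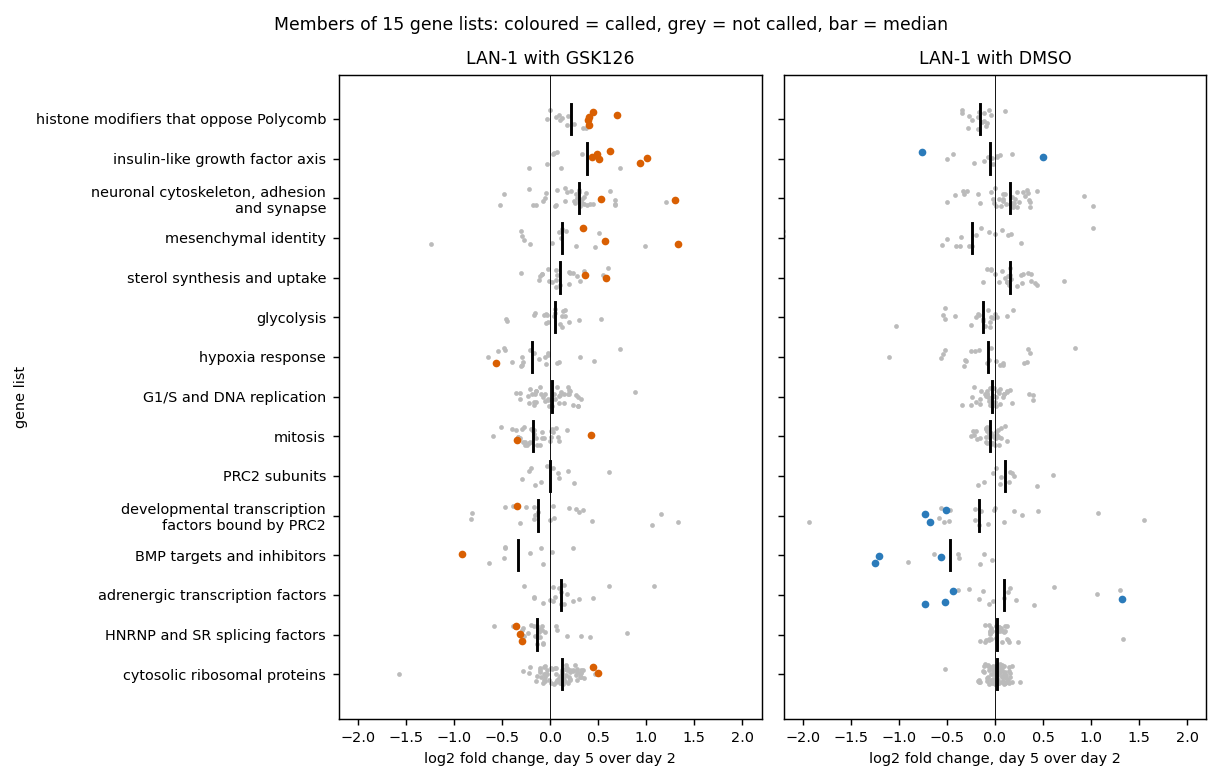
Log2 fold change from day 2 to day 5 for the tested members of 15 gene lists in LAN-1 with GSK126 (left) and DMSO (right), where coloured points are called, grey points are not, and bars are list medians. The histone modifiers that oppose Polycomb and the IGF axis lie to the right of 0 with GSK126 and to its left with DMSO by their medians (0.22 against -0.15 and 0.39 against -0.05), and 9 points fall beyond the axes. The lists of the IGF axis and of splicing factors were drawn up after the values were seen.

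Growth-related lists are given beside the 1.22% called over all tested genes. None of 43 genes of the G1/S transition and DNA replication was called, nor any of 53 replication-dependent histones, 29 genes of nucleolar ribosome assembly, 75 of the respiratory chain or 21 of glycolysis. Including these, 29 lists with 572 tested members had no call by edgeR or DESeq2, and some genes were counted repeatedly. They also covered p53 targets, heat shock, Notch, interferon-stimulated and HLA genes, potassium channels and protocadherins. Of the members, 59 had an unadjusted p under 0.05, against 1477 of all 11863 tested genes. Grouping lists by their lack of calls favours fewer such p, so nothing is read from the 59. Of 36 mitosis genes, 10 had a step above 0 and 13 had an unadjusted p under 0.05. The median was -0.18, against -0.05 with DMSO. Of the 36, 2 were called, in opposite directions. MKI67, which coats mitotic chromosomes, went from 729.5 and 854 CPM to 1042 and 1082 CPM (0.42 ± 0.09, adjusted p = 0.00178), and TOP2A, the DNA-untangling topoisomerase, from 858 and 836 CPM to 682 and 650.2 CPM (-0.34 ± 0.09, adjusted p = 0.0205). The 2 transcripts differ in length and composition, at 12.7 kb and 48.3% GC for MKI67 and 5.70 kb and 38.9% GC for TOP2A, and after correction for both properties the steps were 0.23 (adjusted p = 0.049) and -0.21 (adjusted p = 0.0988). The adjusted p was 0.255 for MKI67 and 0.372 for TOP2A without the first day 2 library. CDKN1A, the p21 inhibitor of cyclin-dependent kinases, had 1.63 and 2.32 CPM at day 2 and 7.69 and 11.0 CPM at day 5 and missed the threshold (2.13 ± 0.62, adjusted p = 0.0585). Of 74 ribosomal proteins 2 rose, RPL36 among them (0.45 ± 0.11, adjusted p = 0.0138), though near-identical pseudogene copies make its counts uncertain, and without the second day 5 library its adjusted p was 0.495.

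The 41 fallers had a median step of -0.53. ZNF300, a KRAB zinc-finger repressor, went from 72.6 and 65.0 CPM to 34.3 and 27.5 CPM (-1.12 ± 0.21, adjusted p = 0.000335), with 51.2 and 59.8 CPM and 59.2 and 53.8 CPM under DMSO. PIGK, an enzyme of GPI-anchor attachment (-1.01 ± 0.22, adjusted p = 0.00427), DCK, which phosphorylates deoxycytidine (-0.75 ± 0.19, adjusted p = 0.0216), and PDK1, the kinase that shuts pyruvate dehydrogenase (-0.57 ± 0.14, adjusted p = 0.0123), fell as well. PDK1 was the only one of 22 hypoxia genes called, where 1.22% of all tested genes were called. Leaving out the first day 2 library, ZNF300 gave 0.0511, PIGK 0.24, DCK 0.244 and PDK1 0.256, and DCK and PDK1 were called in none of the 4 such fits. Among 32 tested HNRNP and SR splicing factors, 3 fell (SRSF1, HNRNPH1 and HNRNPA2B1) and none rose, where 0.346% of all tested genes fell. This list was drawn up after the values were seen. Its median was -0.14 (with DMSO none was called, median 0.02). SRSF1, the founding SR protein, went from 804 and 768 CPM to 651 and 569.7 CPM (-0.36 ± 0.09, adjusted p = 0.0136). Without the first day 5 library 9 of the factors fell and 1 rose, and leaving out any of the other 3 libraries left none called. NRAS, a small GTPase, fell from 313 and 323 CPM to 254 and 203 CPM (-0.45 ± 0.11, adjusted p = 0.0102, and 0.279 without the second day 5 library).

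The largest fold changes belonged to scarce transcripts. TSPO, a mitochondrial outer-membrane protein, had 3 counts over both day 2 libraries and 18 over both day 5 libraries, a ratio of 6.47 with an exact 95% counting interval of 1.89 to 34.3. ARID5B, a DNA-binding partner of a histone demethylase, went from 0.816 and 2.32 CPM to 10.49 and 6.61 CPM, and FBXL15, a ubiquitin ligase subunit, from 2.45 and 0.774 CPM to 11.2 and 6.61 CPM. SCN9A, a sodium channel of sensory and sympathetic neurons, went from 4.90 and 7.74 CPM to 18.2 and 18.7 CPM (2.87-fold, adjusted p = 0.0329). EPAS1, the hypoxia-inducible factor subunit expressed in sympathetic tissue, went from 14.7 and 6.19 CPM to 27.98 and 20.9 CPM (2.43-fold, adjusted p = 0.0208), and stood at 8.32 and 6.79 CPM and 6.27 and 5.88 CPM with DMSO. ADAMTS9, a matrix protease (2.60-fold), PPM1L, a phosphatase (2.33-fold), and SHC3, a neuronal adaptor (2.21-fold), completed the 10 largest rises with COL3A1 and STMN2. At the other end BET1, a Golgi SNARE protein, went from 17.1 and 14.7 CPM to 6.30 and 3.31 CPM (-1.61 ± 0.45, adjusted p = 0.0406). ODF2L, a centrosomal protein (-1.09), CAPRIN2, an RNA-binding protein (-0.94), TBC1D31, another centrosomal protein (-0.88), and TM7SF3, a membrane protein (-0.77), completed the 10 largest falls with ZNF300, SCARNA7, PIGK, SMAD6 and KCTD12. SCARNA7, a small guide RNA, read 32.2 and 7.71 CPM in the day 5 duplicates against 51.4 and 46.4 CPM at day 2, and the second day 5 library was the lower. Of these 20 calls KCTD12 alone held in all 4 fits without 1 library. Among the rises the adjusted p reached 0.445 for TSPO, 0.462 for ARID5B, 0.446 for SCN9A, 0.351 for ADAMTS9, 0.377 for PPM1L, and 0.158 for SHC3 without the first day 2 library, and 0.285 for FBXL15 and 0.38 for EPAS1 without the second. Among the falls it reached 0.377 for BET1, 0.3 for CAPRIN2, 0.566 for TBC1D31, 0.158 for TM7SF3, 0.0511 for ZNF300, 0.24 for PIGK and 0.374 for SMAD6 without the first day 2 library, and 0.486 for SCARNA7 and 0.448 for ODF2L without the second day 5 library.

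Some genes called in the drug step were also called with DMSO. The GSK126 and DMSO steps shared 12 called genes, 8.28% of the 145 and 23.1% of the 52, where 0.438% of all tested genes were called with DMSO and 1.22% with GSK126. ANK2, IGFBPL1 and TOX3 rose in both steps, and DSE, TBX3, KCTD12, HEATR5A, SMAD6 and DOK4 fell in both. ANK2, an ankyrin that anchors membrane proteins in neurons, gave 0.92 ± 0.17 with GSK126 and 0.69 ± 0.17 with DMSO (adjusted p = 0.000335 and 0.0254), and TOX3, an HMG-box factor, gave 1.00 ± 0.26 and 1.00 ± 0.25. SMAD6, an inhibitor of BMP signalling, went from 86.5 and 65.0 CPM to 35.0 and 47.4 CPM with GSK126 and from 83.9 and 72.0 CPM to 27.2 and 39.5 CPM with DMSO, steps of -0.92 ± 0.20 and -1.25 ± 0.19 (adjusted p = 0.00427 and 3.72e-06). The day 5 values of both treatments overlapped and lay below both day 2 pairs. SMAD6 was the only one of 10 BMP targets and inhibitors called with GSK126 (median -0.34), while ID1 and ID2, direct BMP targets, fell beside it with DMSO (median -0.47). ID1 stood at 166 and 151 CPM and then 62.7 and 75.6 CPM with DMSO and at 147 and 152 CPM and then 101 and 117 CPM with GSK126; its GSK126 step missed the threshold (-0.47 ± 0.14, adjusted p = 0.0675), and so did the difference (0.74 ± 0.20, adjusted p = 0.06). None of the 9 genes called alike in both steps had a called difference. Without the first day 2 GSK126 library the drug step of SMAD6 gave 0.374, that of ANK2 0.0554, that of TOX3 0.389, and those of DSE, HEATR5A and DOK4 0.527, 0.102 and 0.327, while KCTD12 kept its call. The DMSO step lost its call for ANK2 without the first day 2 DMSO library (0.584), for TOX3 without the second day 5 DMSO library (0.697), and for IGFBPL1, HEATR5A, TBX3 and SMAD6 without the first (0.307, 0.736, 0.136 and 0.0559).

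Of the 104 risers under the drug, 32 also had a called difference from DMSO, and of the 41 fallers 5 had. Over all tested genes the difference was called upward for 0.43% and downward for 0.11%. It uses the same GSK126 libraries that chose the risers and fallers, which favours such calls, so these counts are a description only. Read from the other side, the 51 genes that moved upward relative to DMSO comprised 29 called only as risers with GSK126, 9 called only as fallers with DMSO, 3 called in both steps in opposite directions and 10 called in neither. AHNAK, a giant scaffold protein, KIF26B, a kinesin-family protein, and SRRM2, a scaffold of nuclear speckles, were the 3 that moved in opposite directions. AHNAK went from 784 and 701 CPM to 345 and 345 CPM with DMSO and from 675 and 727 CPM to 949 and 831 CPM with GSK126. Its DMSO step was -1.11 ± 0.09 (adjusted p = 2.95e-18), its GSK126 step 0.35 ± 0.09 (adjusted p = 0.0165, and 0.337 without the first day 2 library), and the difference 1.46 ± 0.13 (adjusted p = 4.99e-17). KIF26B went from 89.6 and 76.1 CPM to 56.4 and 45.4 CPM with DMSO and from 93.0 and 80.4 CPM to 129 and 147 CPM with GSK126, a difference of 1.35 ± 0.22 (adjusted p = 3.23e-05). In both genes the treatments overlapped at day 2 and were far apart at day 5. SRRM2 gave -0.36 ± 0.08 and 0.34 ± 0.08, a difference of 0.69 ± 0.11 (adjusted p = 3.43e-05). The difference was called for the 3 genes in every fit without 1 library. The drug step alone lost its call without 1 day 2 library in KIF26B (0.0967, the second) and SRRM2 (0.295, the first), and the DMSO step lost its call in KIF26B without the first day 2 DMSO library (0.631) and in SRRM2 without the second day 5 DMSO library (0.644).

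Of all 38 genes that fell with DMSO, 22 had a GSK126 step below 0, where the median over all tested genes was 0. Of the 38, 12 had a difference called upward. The difference subtracts the DMSO step that chose these genes, which favours an upward call, so nothing is read from the 12. Over all tested genes 0.43% had a difference called upward. Of the 51 genes with such a difference, 9 fell with DMSO and were not called with the drug. Among these 9 were receptors of axon guidance and of growth factors, named here after their values were seen. PLXNA2, a semaphorin receptor, stood at 124 and 128 CPM and then at 45.3 and 65.5 CPM with DMSO, against 137 and 155 CPM and then 139 and 154 CPM with GSK126. UNC5B, a netrin receptor, stood at 502 and 473 CPM and then at 252 and 339.5 CPM with DMSO, against 460.2 and 426 CPM and then 409 and 510.2 CPM. In both genes the day 5 DMSO libraries were the lowest of the 8, and the drug libraries of the 2 days overlapped. The differences between the steps were 1.20 ± 0.21 for PLXNA2 and 0.77 ± 0.14 for UNC5B (adjusted p = 9.04e-05 and 0.000384). The difference was also called for PLXNA4, another semaphorin receptor (2.21 ± 0.38, adjusted p = 9.04e-05), EGFR, a growth factor receptor (0.83 ± 0.17, adjusted p = 0.00404), and SFRP1, a secreted Wnt antagonist (0.53 ± 0.13, adjusted p = 0.0202). Their DMSO steps were -1.62, -0.74 and -0.49 in that order, and their GSK126 steps 0.59, 0.08 and 0.04. Leaving out the first day 5 DMSO library, the difference gave 0.0524 for PLXNA2, 0.11 for UNC5B and 0.396 for SFRP1, and without the first day 2 DMSO library 0.0615 for PLXNA4 and 0.104 for EGFR. The DMSO fall itself lost its call for PLXNA4 without the first day 2 DMSO library (0.586) and for SFRP1 without the first day 5 DMSO library (0.481). ASNS and SLC7A11, genes of amino acid stress, rose with DMSO (0.88 ± 0.15 and 0.76 ± 0.15) and gave 0.12 ± 0.16 and 0.33 ± 0.15 with GSK126, differences that missed the threshold (adjusted p = 0.0739 and 0.5); the rise of SLC7A11 was lost without the first day 5 DMSO library (0.757).

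Further genes with a called difference were HUWE1, a giant E3 ubiquitin ligase (0.78 ± 0.12, adjusted p = 1.66e-05), and MKI67 (0.68 ± 0.12, adjusted p = 0.000155), each called in every fit without 1 library and under GC and length correction. HUWE1 stood at 654 and 791 CPM and then 1038 and 1017 CPM with GSK126, and at 881 and 917 CPM and then 790.4 and 694 CPM with DMSO. The day 5 drug libraries were above the other 6. Downward relative to DMSO, the 5 genes of smallest adjusted p were SPCS3, a signal peptidase subunit (-0.60 ± 0.12, adjusted p = 0.00212), PTGES3, the p23 co-chaperone (-0.60 ± 0.13, adjusted p = 0.00543), DCK (-1.10 ± 0.26, adjusted p = 0.0143), CUL4A, a ubiquitin ligase scaffold (-0.63 ± 0.15, adjusted p = 0.0184), and ZNF300 (-1.15 ± 0.28, adjusted p = 0.0217). Every one of these 5 lost its call in some fit without 1 library, with adjusted p up to 0.0963, 0.101, 0.173, 0.188 and 0.186 in that order. The library left out was the first day 2 GSK126 library for SPCS3 and ZNF300, the first day 2 DMSO library for PTGES3 and DCK, and the second day 5 DMSO library for CUL4A.

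Of the 18 genes higher than DMSO at day 2, 10 were called again at day 5 and 3 rose in the GSK126 step: ACSS2, COL6A1 and PRUNE2. The 18 were chosen with the day 2 GSK126 libraries that the step subtracts, so their median step of 0.05 is a description, and the choice favours a small value. PRUNE2 stood at 110.1 and 135 CPM with DMSO at day 2 and at 128 and 124 CPM at day 5, so that it was apart from the drug libraries at both times and rose between them. COL6A1 stood at 52.5 and 51.6 CPM and then 68.2 and 56.3 CPM with DMSO, below the drug libraries of either day. PRPH, the intermediate filament peripherin of peripheral neurons, was raised at day 2 (49.3 and 49.6 CPM with DMSO, 93.8 and 77.4 CPM with GSK126) and read 92.3 and 137 CPM at day 5, where the step did not pass (0.37 ± 0.15, adjusted p = 0.262). COL2A1, a cartilage collagen, was likewise raised at day 2 (173 and 194 CPM and 251 and 285 CPM) and its step was 0.25 ± 0.10 (adjusted p = 0.278). At day 5, 434 genes (3.66%) differed from DMSO, 291 higher (2.45%) and 143 lower (1.21%), and 81 of them were called in the same direction in the GSK126 step, a comparison that shares the day 5 drug libraries.

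Kelly cells given the same drug for the same times had 349 called genes (2.94%), of which 237 rose (2%) and 112 fell (0.944%). The lines are not ranked by these counts: with DESeq2 they were 64 for Kelly against 60 for LAN-1, and without 1 library they ran between 104 and 174 for Kelly and between 21 and 382 for LAN-1. The 2 lines shared 24 called genes, 16.6% of the LAN-1 calls and 6.88% of the Kelly calls. Of these, 16 rose in both lines (DDR2, KDM5B, COL3A1, FN1, IGFBP5, TENM3, SEMA6A, CUX1, STMN2, MAOA, CDR1, AHNAK, CNTN1, LGALS3BP, TUBB4A and INSR), TBX3 and SRSF1 fell in both, and IGFBP2, PLXNA1, GRK5, IGF2, KCTD12 and CHGA moved in opposite directions. IGFBP5 went from 94.9 and 86.1 CPM to 206 and 209 CPM in Kelly (1.20 ± 0.12, adjusted p = 4.77e-13); the difference between the lines was -0.27 ± 0.20 (adjusted p = 0.634). CNTN1, a neuronal adhesion molecule, gave 0.81 ± 0.17 in LAN-1 and 0.59 ± 0.09 in Kelly, and DDR2, a collagen receptor, 0.76 ± 0.15 and 0.52 ± 0.12. COL3A1 went from 5.51 and 5.10 CPM to 54.9 and 45.1 CPM in Kelly (3.21 ± 0.32), a larger step than in LAN-1 whose difference missed the threshold (adjusted p = 0.0526). The difference between the lines was called for FN1 and INSR, which rose in both. Reads of CDR1 (0.67 ± 0.12 and 0.39 ± 0.10) cannot be told apart from those of its antisense partner. In LAN-1 the calls of DDR2 and CNTN1 were lost in some fits without 1 library, at adjusted p up to 0.0696 (first day 5 library) and 0.164 (first day 2 library).

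The GSK126 steps of the 2 lines were compared without subtracting either DMSO step, so drug and culture time are not separated here. Their difference was called for 116 genes (0.978%), 48 higher (0.405%) and 68 lower (0.573%) in LAN-1. This balance turned to 13 higher and 7 lower with DESeq2, to 61 and 54 with no filter on low counts, and to 42 and 28 without the second day 2 Kelly library, so none is read from it. IGF2 rose in LAN-1 and fell in Kelly, from 335 and 316 CPM to 179.5 and 159 CPM (-0.95 ± 0.12, adjusted p = 1.34e-09), a difference of 1.57 ± 0.18 (adjusted p = 1.17e-09). IGFBP2 went from 134 and 133 CPM to 101 and 89.4 CPM in Kelly (-0.49 ± 0.14, adjusted p = 0.0248, and 0.342 without the second day 5 Kelly library), a difference of 1.497 ± 0.23 (adjusted p = 3.64e-06). Both genes thus moved in opposite directions in the 2 lines, and the difference was called in every fit without 1 library. SLC7A5, a large amino acid transporter, went from 301 and 304 CPM to 208 and 182 CPM in Kelly and from 284 and 279 CPM to 322 and 395 CPM in LAN-1, a difference of 0.97 ± 0.15 (adjusted p = 7.1e-06). Its LAN-1 step by itself missed the threshold (0.33 ± 0.11, adjusted p = 0.0967). KCTD12 fell in LAN-1 and rose in Kelly (0.36 ± 0.10, adjusted p = 0.0364, and 0.359 without the second day 2 Kelly library), with a difference of -1.21 ± 0.14 (adjusted p = 3.57e-09).

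The step of several lineage genes differed between the lines as well. MYCN fell in Kelly from 2568 and 2569.5 CPM to 1901 and 1929 CPM (-0.42 ± 0.08, adjusted p = 6.54e-05), and its difference from LAN-1 was 0.54 ± 0.11 (adjusted p = 0.00185). CHGA fell in Kelly (-0.39 ± 0.08, adjusted p = 0.000314) and rose in LAN-1, a difference of 0.80 ± 0.13 (adjusted p = 1.22e-05). NOTCH2, a Notch receptor, rose in Kelly by 2.46 ± 0.26 from 6.73 and 12.8 CPM at day 2 and was at 189 and 220.5 CPM and then 230.1 and 213 CPM in LAN-1, a difference of -2.34 ± 0.29 (adjusted p = 3.57e-09). YBX3, a cold-shock RNA-binding protein, rose in Kelly from 4.90 and 2.55 CPM to 24.6 and 23.7 CPM and read 148 and 156 CPM and then 144 and 158 CPM in LAN-1, a difference of -2.68 ± 0.41 (adjusted p = 3.64e-06). At day 2 both genes were thus far lower in Kelly than in LAN-1, and YBX3 still was at day 5. Each of these 4 differences was called in every fit without 1 library.

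**Figure D5:**
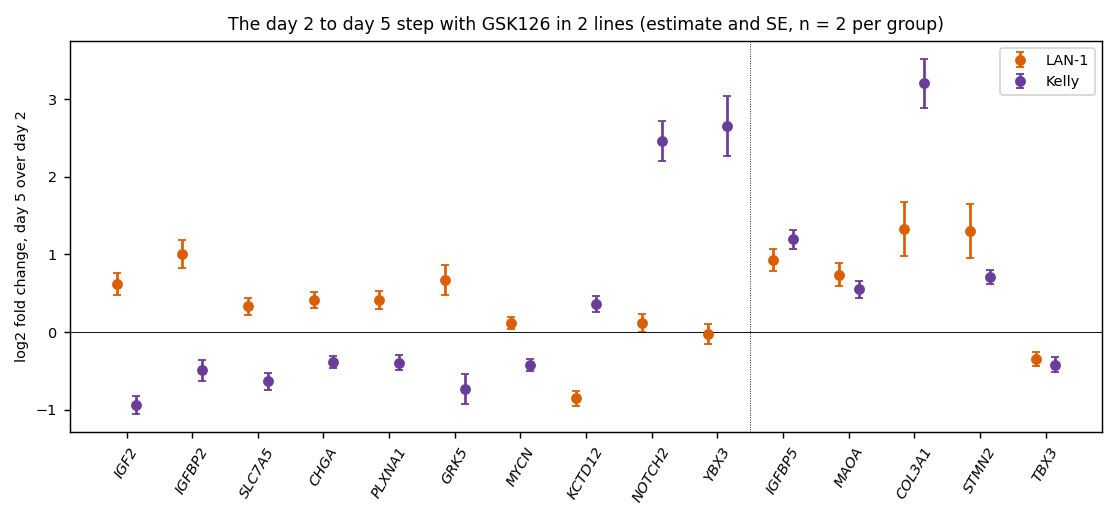
Log2 fold change from day 2 to day 5 of GSK126 (estimate with SE as the error bar, n = 2 libraries per group) for 15 genes in LAN-1 (orange) and Kelly (purple). Left of the dotted line are 10 genes whose step differed between the lines, and right of it 5 genes called in the same direction in both, with IGFBP5 at 0.93 and 1.20.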

How the data were processed

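RNA from LAN-1 and Kelly cells was sequenced in 16 libraries, and read counts per gene symbol were deposited in a table of the whole series. The submitters' processing notes name featureCounts, TopHat2 and FastQC and the genome build GRCh37 (hg19); versions, annotation, strand setting and the treatment of reads that match several genes are not given in the sources used here. From these deposited counts, edgeR 4.0.16 (R 4.3.3) was run with its quasi-likelihood test (glmQLFit, robust, and glmQLFTest) over all 16 libraries with 1 mean for each of 8 groups, so that the 8 duplicate pairs share the estimate of spread (8 residual degrees of freedom). Scaling was by TMM, filterByExpr (minimum count 10) chose the genes to test, and p-values were adjusted by Benjamini-Hochberg over the 11863 genes kept, with a threshold of 0.05. Every adjusted p comes from this test unless another is named. The number of counts per library, from 912095 to 1666190, limits the precision for scarce transcripts; the exact 95% intervals on count ratios cover counting error only, and reads without molecular identifiers are not independent molecules.

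The gene lists and the comparison were chosen with earlier results of these data known. Genes were named by a rule: EZH2, EZH1, SUZ12, EED, MYCN, CDKN1A, RET and 1 more gene; the 10 largest rises and falls among called genes whose mean reached 5 CPM in a group and whose groups did not overlap; the 5 genes of smallest adjusted p in each direction for the difference from DMSO and the 3 for the difference from Kelly; and up to 4 called members of each list. The values of 3 genes are not reported here, and they are counted where whole lists are counted. Other genes given with values were chosen after those values were seen, among them the genes kept in every fit without 1 library, the genes shared with DMSO or Kelly and those already raised at day 2. Alternatives tried were a fold rule of 1.5, DESeq2 size factors, DESeq2 1.42.0, no filter, a minimum count of 30, fits on fewer libraries, a replicate block, corrections for GC content and for GC content and transcript length, and leaving out each library. Positions, lengths and GC content come from GENCODE 44 lifted to GRCh37, which gave a GC content for 98.7% of tested genes. The table also held 28 symbols turned into dates, 18 of them tested, which were not named.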

Additional observations from a re-analysis of the deposited data

Results flagged for a closer look

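The GSK126 step differed from the DMSO step by a test of the difference itself (edgeR's quasi-likelihood test, adjusted p below 0.05) for 51 genes in the upward and 13 in the downward direction (107 and 116 without the first day 5 GSK126 library). On the log2 scale the named genes among them were AHNAK at 1.46, IGFBP5 at 1.36, KIF26B at 1.35, KMT2D at 0.97 and HUWE1 at 0.78, each called in all 8 fits without 1 library. Downward the values were -1.15 for ZNF300, -1.10 for DCK, -0.63 for CUL4A, -0.60 for SPCS3 and -0.60 for PTGES3, none of which was called in all 8.

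The GSK126 step also differed between LAN-1 and Kelly, with 48 genes higher in LAN-1 and 68 lower. That balance turned with DESeq2 (13 and 7) and with no filter (61 and 54). No DMSO step was subtracted in this comparison, so drug and culture time are not separated in it. The 3 smallest adjusted p in each direction belonged to IGF2 at 1.57, IGFBP2 at 1.497 and SLC7A5 at 0.97 upward, and to KCTD12 at -1.21, NOTCH2 at -2.34 and YBX3 at -2.68 downward. Each of these 6 was called in all 8 fits without 1 library.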

How the results depend on the processing

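The 145 calls of the GSK126 step became 66 with a fold change of at least 1.5, 60 with DESeq2, 80 with only the 4 libraries compared and 95 with GC and length correction, and ranged from 21 to 382 without 1 library; 7 of 11 other settings stayed within 1.5 times. The 52 calls of the DMSO step became 30, 19, 81 and 87 under the same 4 settings and 82 with GC correction, and ranged from 21 to 32 without 1 library. The 64 differences became 23 with DESeq2 and 27 with GC and length correction, and ranged from 24 to 223 without 1 library. The 349 Kelly calls became 230 with the fold rule, 64 with DESeq2 and 554 with only their own libraries, and ranged from 104 to 174 without 1 library. The 116 differences between lines became 20 with DESeq2 and ranged from 31 to 343 without 1 library. The fold rule removes genes by construction, and the cause of the other shifts was not tested. The GC and length correction was chosen after seeing the data.

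Deviations of libraries with the same replicate number were hardly correlated (r = 0.04 between the day 2 and day 5 GSK126 libraries of LAN-1 and below 0.1 in every LAN-1 and Kelly pair of groups). Counting noise made up much of these deviations and can hide a shared effect. The low r therefore cannot decide whether the replicate numbers pair the samples. With a replicate block the GSK126 step had 129 calls, 123 of them shared with the 145, the DMSO step 44, the difference 47, the Kelly step 298 and the difference between lines 95.

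Among named genes the sign of the GSK126 step turned only for 8 genes that were not called. With DESeq2 size factors YBX3 gave 0.00218, STARD4 0.00112 and PLXNA2 0.0147, and with DESeq2 YBX3 gave 0.00745 and PLXNA2 0.0200. PLXNA2 gave 0.00237 at a minimum count of 30, 0.00398 with only the 4 libraries compared and 0.00750 with the replicate block. With GC correction HMGCS1 gave 0.0518, MSMO1 0.0606, STARD4 0.196 and UNC5B -0.0813, and with GC correction and replicate block 0.0560, 0.0652, 0.205 and -0.0779 in the same order. With GC and length correction NOTCH2 gave -0.0563, HMGCS1 0.0524, MSMO1 0.0989, STARD4 0.209, UNC5B -0.118 and EGFR -0.0482. Without 1 library the lowest and highest values were -0.272 and 0.144 for MSMO1, -0.0712 and 0.0791 for STARD4, -0.0764 and 0.0507 for YBX3, -0.0723 and 0.116 for PLXNA2 and -0.113 and 0.203 for UNC5B. The cause was not tested. Of the 50 named genes called in the GSK126 step, 38 kept their call with GC correction, 29 with GC and length correction and 21 with DESeq2, which gave no adjusted p for 17. KCTD12, IGFBP5, KMT2D, IGFBP2 and MAP1B kept it under all these settings.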
